A study of Mus musculus with 20 samples.

Results

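The wide 5-formylcytosine (5fC) domains described here are long stretches of 5fC enrichment in mouse embryos that lack thymine DNA glycosylase (Tdg). They were chosen by peak width: every autosomal peak of 3000 bp or more in any of 9 Tdg null pull-down libraries (4 hindbrain, 2 heart, 2 carcass and 1 liver) was taken, and overlapping wide peaks of different libraries were merged into 1 domain, which can be wider than any single peak in it. The 9 libraries held 1340949 autosomal peaks, of which 5591 (0.417%) were wide, and these gave 3278 domains. All peaks of the 9 libraries were also merged into regions, and 396022 of these regions touched no domain. These other null regions, covering 337 Mb with a median width of 700 bp, stood beside the 3278 domains, which covered 12.2 Mb.

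5fC was enriched by chemical pull-down from sonicated DNA of dissected hindbrain, heart, liver and carcass of mid-gestation (E11.5) embryos, and 20 lists of peak positions were analysed. In the Tdg null allele a neomycin-resistance cassette stands where the wild-type gene codes for the part of the enzyme with its catalytic activity. Null and wild-type (WT) embryos both came from timed matings of heterozygotes. Hindbrains came from 4 null and 4 WT embryos of 4 litters. Hearts, livers and carcasses came from 2 null and 2 WT other embryos, so that the heart, liver and carcass library with the same replicate number and genotype shared an embryo. Differences between hindbrain and the other tissues therefore cannot be told apart from differences between embryos or litters. The liver null replicate 2 library, with 206 peaks, was not among the 9. The lists hold positions only, with no heights or read counts, so the depth is unknown and dissected tissues could not be checked against marker expression. In dissected tissue, fewer modified cells and fewer modified molecules per cell cannot be told apart.

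5fC is made from 5-methylcytosine, by way of 5-hydroxymethylcytosine, by the TET dioxygenases. TDG cuts 5fC and 5-carboxylcytosine out of DNA, after which base excision repair restores an unmodified cytosine. In embryos without TDG activity 5fC is therefore not removed by this route, and mapping it shows where TET enzymes have acted, which in mammalian cells is often at enhancers and gene bodies. Nearly all 5-methylcytosine of these tissues is at CpG dinucleotides, and 5fC is formed at the same sites.

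The sequences of 10 named domains are shown because they stand for the patterns described below. They include domains wide in all 9 null libraries (Pxn, Bahcc1) and the widest domains after that at Gm15319 (Smad6, Mtss1). Also shown are domains of the heart contraction and cardiac factor genes (Myh7, Gata4), domains wide in hindbrain or carcass alone (Wwox, Adamts17), and domains under a wide WT peak (Gli2, Tcte2). Each sequence is a window of 200 bp of the plus strand of NCBIM37 (mm9), written 5′ to 3′, taken where the peaks of the most null libraries lay over every base. Among windows that tied, the one with the most CpG was taken, and untranslated regions were left out. Capitals mark CpG dinucleotides.
Pxn, chr5:115959301-115959500: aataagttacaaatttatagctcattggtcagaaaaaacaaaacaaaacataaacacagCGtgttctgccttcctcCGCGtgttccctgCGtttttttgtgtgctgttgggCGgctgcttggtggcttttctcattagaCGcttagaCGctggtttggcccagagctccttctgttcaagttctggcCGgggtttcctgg
Bahcc1, chr11:120104501-120104700: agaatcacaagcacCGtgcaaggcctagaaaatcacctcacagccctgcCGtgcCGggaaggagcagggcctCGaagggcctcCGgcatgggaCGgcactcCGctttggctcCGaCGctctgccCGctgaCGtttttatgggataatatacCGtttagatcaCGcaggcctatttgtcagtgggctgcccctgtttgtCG
Smad6, chr9:63810801-63811000: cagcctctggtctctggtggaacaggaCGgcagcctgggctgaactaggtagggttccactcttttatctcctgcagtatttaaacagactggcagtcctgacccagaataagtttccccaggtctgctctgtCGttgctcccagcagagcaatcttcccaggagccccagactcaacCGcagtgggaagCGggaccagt
Mtss1, chr15:58819401-58819600: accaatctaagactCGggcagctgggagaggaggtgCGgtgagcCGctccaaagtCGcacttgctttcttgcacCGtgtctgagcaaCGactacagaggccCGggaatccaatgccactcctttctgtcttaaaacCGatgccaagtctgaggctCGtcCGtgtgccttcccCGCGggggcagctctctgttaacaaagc
Myh7, chr14:55611401-55611600: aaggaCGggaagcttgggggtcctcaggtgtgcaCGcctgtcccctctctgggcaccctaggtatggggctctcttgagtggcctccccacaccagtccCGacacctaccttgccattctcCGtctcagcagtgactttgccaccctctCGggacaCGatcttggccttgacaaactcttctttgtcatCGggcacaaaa
Gata4, chr14:63849801-63850000: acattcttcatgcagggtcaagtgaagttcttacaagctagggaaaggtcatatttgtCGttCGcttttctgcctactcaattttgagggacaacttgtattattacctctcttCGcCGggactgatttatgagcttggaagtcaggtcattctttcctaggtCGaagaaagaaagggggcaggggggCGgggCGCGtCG
Wwox, chr8:117667501-117667700: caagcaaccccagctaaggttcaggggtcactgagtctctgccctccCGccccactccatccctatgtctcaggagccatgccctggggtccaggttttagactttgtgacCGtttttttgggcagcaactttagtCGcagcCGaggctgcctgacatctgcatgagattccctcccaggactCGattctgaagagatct
Adamts17, chr7:74107601-74107800: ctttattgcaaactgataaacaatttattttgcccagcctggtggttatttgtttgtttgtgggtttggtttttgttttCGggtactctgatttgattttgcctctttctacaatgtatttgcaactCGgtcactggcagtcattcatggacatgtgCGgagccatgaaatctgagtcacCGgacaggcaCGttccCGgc
Gli2, chr1:120930901-120931100: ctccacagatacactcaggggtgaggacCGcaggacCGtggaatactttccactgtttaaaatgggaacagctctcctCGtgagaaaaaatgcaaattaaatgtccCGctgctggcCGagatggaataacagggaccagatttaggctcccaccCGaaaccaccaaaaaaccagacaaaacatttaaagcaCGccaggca
Tcte2, chr17:13743001-13743200: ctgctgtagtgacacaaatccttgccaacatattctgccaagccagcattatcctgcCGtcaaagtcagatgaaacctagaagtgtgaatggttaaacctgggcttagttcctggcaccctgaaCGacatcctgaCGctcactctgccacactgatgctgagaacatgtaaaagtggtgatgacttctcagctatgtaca

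All windows but that of Myh7, which takes in part of an exon, were intronic. The Bahcc1 window held 14 CpG and lay under peaks of all 9 null and of 7 WT libraries. The Pxn window held 8 CpG and lay under 9 null and 5 WT libraries. The Smad6 window held 4 CpG and lay under 6 null and no WT libraries. The Tcte2 window, with 3 CpG, lay under 3 null libraries and 5 WT libraries. The windows were chosen for their numbers of null libraries and of CpG, so these counts do not stand for the whole domains.

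The width of the domains ran from 3000 to 34400 bp, with a median of 3400 bp and a 90th percentile of 4700 bp. Most lay close to the limit: 468 measured exactly 3000 bp and 251 measured 5000 bp or more. Just inside the limit the 9 libraries held 869 peaks of 3000 bp and 745 of 3100 bp. Just outside it they held 1099 peaks of 2900 bp and 1305 of 2800 bp, so no gap in width set the wide peaks apart. A further 3038 null regions reached 3000 bp only because narrower peaks of different libraries overlapped, and these are counted among the other null regions.

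Heart and carcass supplied most wide peaks. The heart null libraries held 1647 and 323 wide peaks and the carcass null libraries 891 and 1704. Fewer were found in hindbrain null libraries, with 296, 73, 136 and 250, and in the liver null library, with 271. These counts moved in part with the number of peaks called: the 2 libraries with the most wide peaks also had the most peaks (251271 in heart null 1 and 217565 in carcass null 2), and hindbrain null 2, with the fewest wide peaks, had 103099, though liver null 1 had fewer still (100553). The part of the number of peaks in the differences between tissues was not tested. In WT libraries wide peaks were few: 7, 5, 10 and 7 in hindbrain, 9 and 3 in heart, 2 and 0 in carcass, and 1 and 0 in liver. They stood among 1507 to 41464 peaks per library. As a share of its peaks, hindbrain WT held 0.462%, 0.0562%, 0.0475% and 0.464% wide peaks, beside 0.0708% to 0.248% in hindbrain null. In heart, carcass and liver the share was 0% to 0.153% in WT and 0.258% to 0.783% in the null libraries of the 9.

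**Figure D1:**
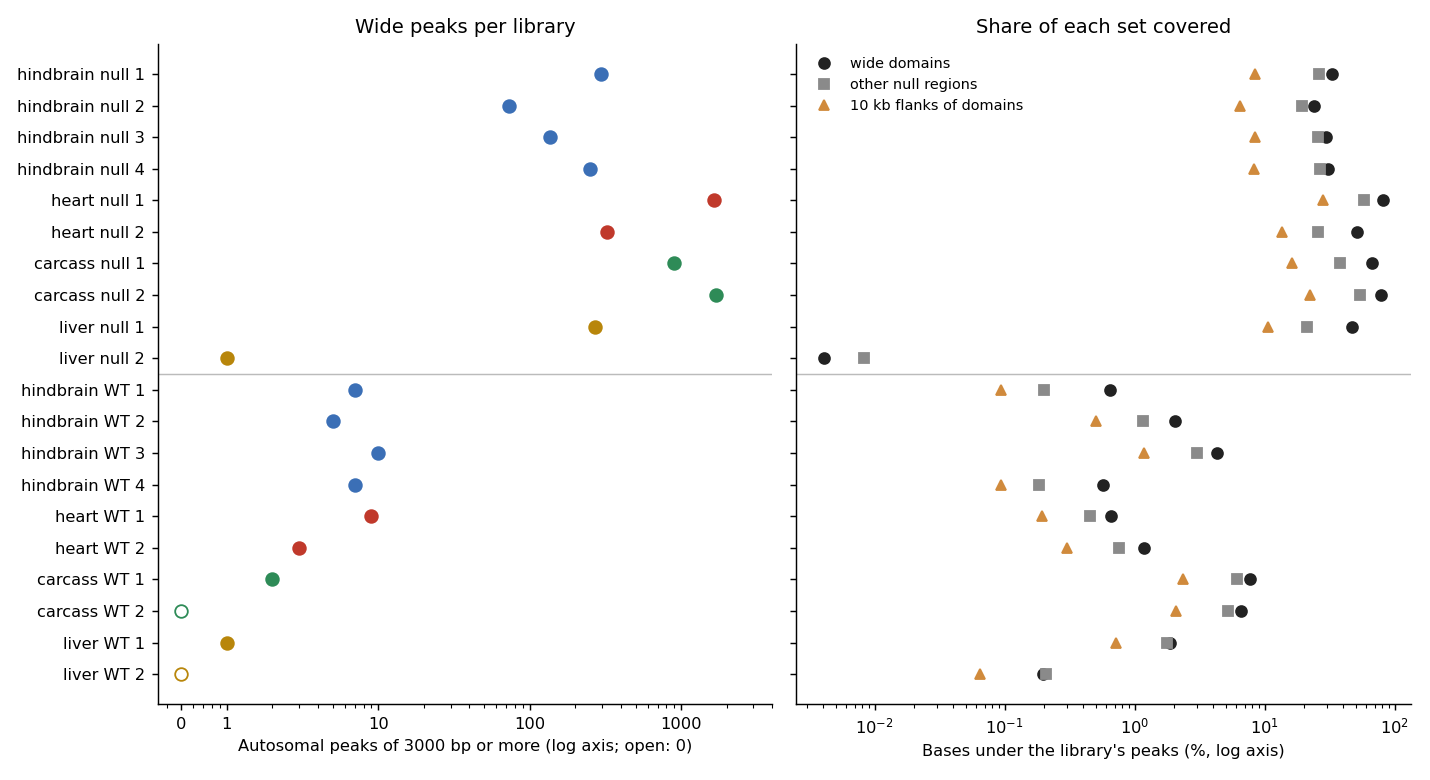
Left, number of autosomal peaks of 3000 bp or more in each of the 20 libraries (log axis, open circles for 0); right, percent of the bases of wide domains, of other null regions and of the 10 kb flanks of domains under the peaks of each library (log axis). Null libraries of the 9 hold 73 to 1704 wide peaks and WT libraries 0 to 10, and each point is 1 library.

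More than 1 library called the same domain wide in a minority of cases. Of the 3278 domains, 1916 (58.5%) were wide in 1 library, 831 in 2, 300 in 3 and 130 in 4, and 4 domains were wide in all 9. By tissue, 1162 (35.4%) were wide in carcass alone, 1141 (34.8%) in heart alone, 170 in hindbrain alone and 37 in liver alone. The most frequent combinations were heart with carcass (228 domains) and hindbrain with carcass (225 domains), and 37 domains were wide in all 4 tissues. Of the domains wide in heart, 68.6% were wide in no other tissue, beside 64.2% for carcass, 32.2% for hindbrain and 13.9% for liver. Most domains wide in 1 tissue alone were wide in 1 library only. Wide in 2 or more libraries were 145 of the 1141 of heart, 419 of the 1162 of carcass and 30 of the 170 of hindbrain. Wide in 1 tissue did not mean absent elsewhere. The domains wide in heart alone were covered by peaks over 99.8% and 73% of their bases in the heart null libraries, over 38.8% and 51.4% in carcass, over 45.3% in liver and over 16.9% to 23% in hindbrain. The domains wide in hindbrain alone were covered over 70.6% and 78.2% of their bases in carcass null libraries, beside 43.6% to 74.9% in the hindbrain null libraries themselves.

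The widest domain, of 34400 bp, lay at chr8:19917001-19951400, with 18159 bp in the predicted gene Gm15319 and the rest over annotated models of other types. It was covered over 98.5%, 0%, 82.3% and 99.1% of its bases in the 4 hindbrain null libraries and over 100% in each of the 4 hindbrain WT libraries. Both heart WT libraries covered it (100% and 99.1%), while heart, carcass and liver null libraries and carcass and liver WT libraries covered none of it. The widest domain of the genotype thus did not separate null from WT. With 4.42 CpG per kb it was also among the 3 domains under 6 CpG per kb, together with those at Tcte2 (3.66) and Coil (4.85), and all 3 lay under a wide WT peak.

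Among the next widest were domains at inhibitors of SMAD signalling. Smad6, an inhibitor of BMP signalling, held a domain of 19300 bp at chr9:63808201-63827500 inside its introns, which was covered over 100% and 82.4% in heart null, 51.8% and 53.9% in carcass null, 50.3% in liver null, and 0%, 0%, 13.5% and 0% in hindbrain null. Among WT libraries 1 of 10, liver WT 1, covered any of it (6.74%). Smad7, which inhibits TGF-beta and BMP receptors, held a domain of 13900 bp inside the gene at chr18:75530801-75544700. It was covered over 95% and 74.1% in heart null, 73.4% and 98.6% in carcass null and 64% in liver null, and over none of its bases in the 4 hindbrain null libraries. Hindbrain WT 3 covered 6.47% of it and the other WT libraries none. Both domains were covered in null heart, carcass and liver and nearly or wholly uncovered in null hindbrain, which came from other embryos and litters.

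Several other wide domains had the same tissues, but not all. The domain of 15900 bp at chr15:58807601-58823500 in Mtss1, which encodes an actin-binding protein of the cell cortex, was covered over 79.9% to 94.3% in heart and carcass null libraries, 78% in liver null and 0% in the 4 hindbrain null libraries. A domain of 9100 bp at chr10:66562901-66572000 in Jmjd1c, a gene of the histone demethylase family, was covered over 74.7% to 100% outside hindbrain and over 0% in null hindbrain. Vps37b, a subunit of the ESCRT-I sorting complex, carried 10700 bp at chr5:124459601-124470300, covered over 53.3% to 100% outside hindbrain and 14% to 22.4% within it. Trio, which encodes a guanine nucleotide exchange factor, carried 9300 bp at chr15:27712001-27721300, covered over 74.2% to 100% outside hindbrain and at most 9.68% within it, with no WT library over any of it. In contrast, 9500 bp at chr8:34937101-34946600 in Rbpms, which encodes an RNA-binding protein, was covered in all 9 null libraries (14.7% to 98.9%) and in 8 of 10 WT libraries (up to 12.6%). A domain of 9000 bp at chr6:47707601-47716600, with Pdia4 the nearest start, was covered over 100% in liver null and 0% in both heart null libraries. Carcass null libraries covered 0% and 16.7% of it and hindbrain null libraries 0%, 21.1%, 16.7% and 40%. A domain of 8800 bp in Sulf2 was covered over 34.1% to 88.6% outside hindbrain and 26.1%, 0%, 17% and 28.4% within it.

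A domain of 9600 bp at chr17:35642701-35652300 took in the start of Pou5f1, the pluripotency factor Oct4, and Tcf19. It was covered over 99%, 99% and 100% in the carcass, heart and liver libraries of null embryo 1, and over 0% in the carcass and heart libraries of null embryo 2. Hindbrain null libraries covered 11.5% to 20.8% of it and no WT library covered any. Here the 2 null embryos, and not the tissues, were apart.

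The 4 domains wide in all 9 null libraries lay in Bahcc1 (6400 bp), in a transcript annotated as Ttc28 (5100 and 4000 bp) and in Pxn, the focal adhesion protein paxillin (3400 bp). Pxn, at chr5:115957201-115960600, was covered over 91.2% to 97.1% in the 9 null libraries. In WT it was covered over 47.1% and 55.9% in carcass, 0% and 47.1% in heart, 41.2% and 0% in liver, and 0%, 0%, 41.2% and 0% in hindbrain, so that coverage of WT libraries was lower than that of any null library. The 4000 bp Ttc28 domain at chr5:111565301-111569300 was covered over 95% to 100% in the 9 null libraries and over 17.5% and 20% in carcass WT alone among WT libraries. Pdgfrb, a receptor for platelet-derived growth factor on mesenchymal cells, held a domain of 3800 bp at chr18:61213701-61217500 that was wide in 8 libraries, was covered over 76.3% to 100% in all 9 and was covered in no WT library.

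Domains wide in a single tissue were led by those at Wwox, Smad6, Zfp521 and Btbd9. The Wwox domain (chr8:117664901-117668700, 3800 bp), in an intron of a WW-domain oxidoreductase gene, was wide in the 4 hindbrain null libraries, which covered 94.7% to 100% of it. Carcass null libraries also covered 94.7% and 100% of it, in narrower peaks, and heart null libraries 50% and 47.4%. In heart, Nckap5l (6300 bp) was covered over 100% and 92.1%, beside 38.1% in each carcass null library and 42.9% in liver null, and Grik3, a kainate receptor subunit (6200 bp), over 100% and 64.5%, beside 16.1% and 51.6% in carcass null and 53.2% in liver null. In carcass, the domain of the zinc finger gene Zfp521 (7700 bp) was covered over 98.7% and 100% in carcass null and 84.4% and 61% in heart null and 41.6% in liver null, and that of the metalloprotease gene Adamts17 (7400 bp) over 85.1% and 100% beside 68.9% and 23% in heart null and 74.3% in liver null. A domain of 7100 bp lay 7547 bp from the nearest start, that of the imprinted gene Mest, and was covered over 98.6% and 100% in carcass null against 23.9% to 33.8% in heart and liver null. The widest domain wide in liver alone, in Btbd9 (5000 bp), was covered over 100% in liver null 1, but also over 90% and 92% in the carcass and heart libraries of the same embryo, against 28% in each of those of the other embryo. No WT library covered any of the Wwox, Nckap5l, Zfp521, Adamts17 or Btbd9 domains. In contrast, 4 WT libraries covered 6.45% to 19.4% of the Grik3 domain, with carcass WT 1 (19.4%) above carcass null 1 (16.1%). The domain near Mest was covered over 9.86% to 12.7% in 4 WT libraries.

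**Figure D2:**
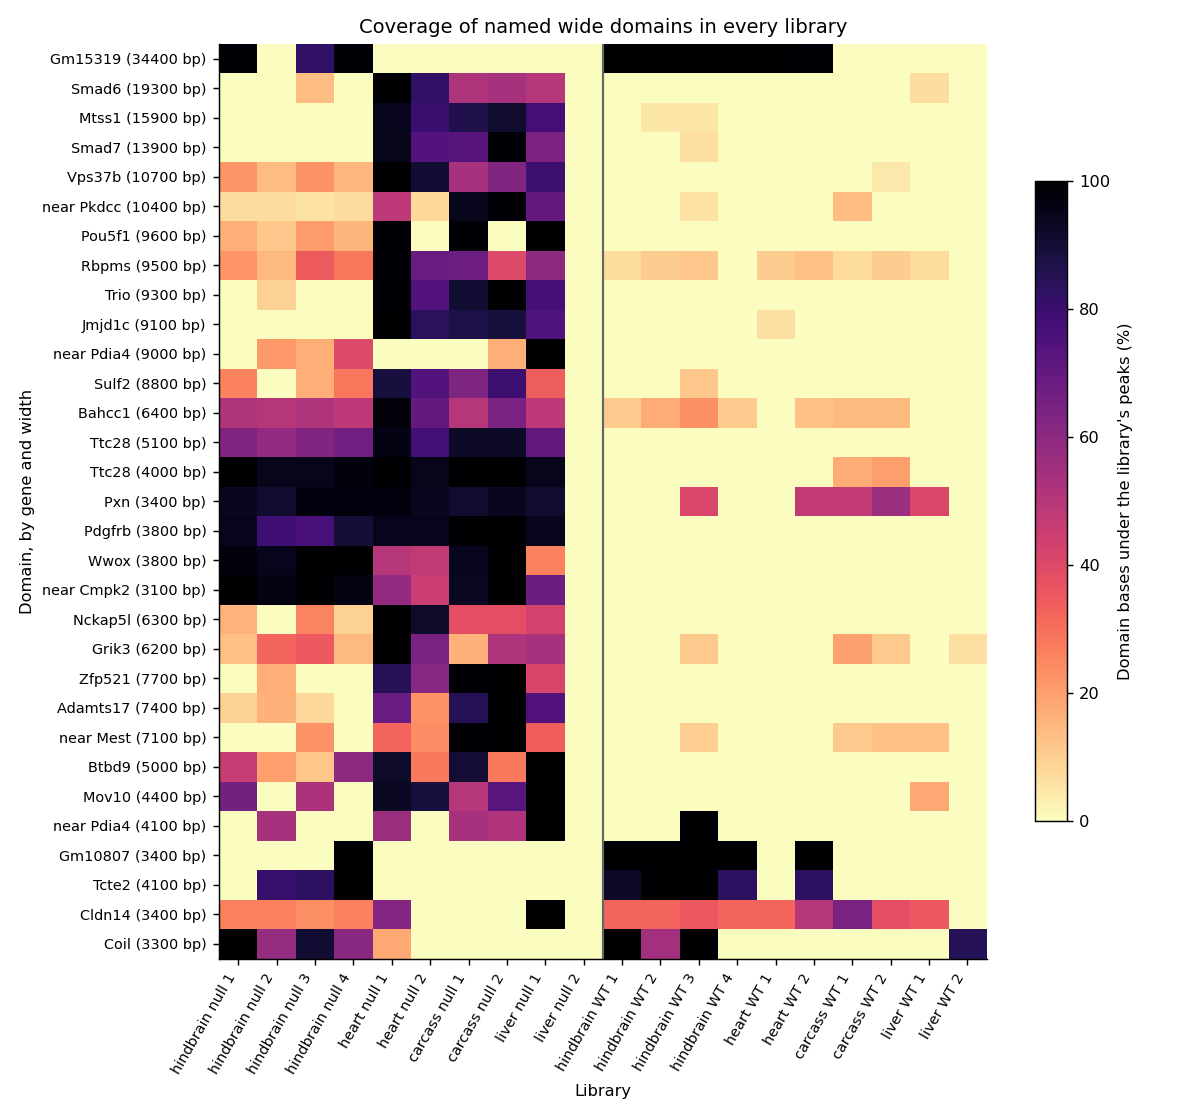
Percent of the bases of each named domain (rows, with gene and width) under the peaks of each library (columns, null left and WT right of the line). Most named domains are covered in several null tissues and in few WT libraries, while the rows of Gm15319, Gm10807, Tcte2, Cldn14 and Coil are covered in WT libraries.

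The domains were richer in CpG and in introns than the other null regions. They held 48.8% GC and 16.9 CpG per kb, beside 46.2% and 14.2 in other null regions, 46.6% and 12.8 in the flanks of 10 kb on each side of the domains, and 41.9% and 8.51 on the autosomes outside gaps. Single domains varied around these values: the 10th and 90th percentiles were 12.2 and 21.7 CpG per kb for domains and 6.67 and 21.2 for the other null regions, which are shorter. Introns made up 68.7% of domain bases, exons 6.14% and sequence outside genes 25.2%, beside 50.4%, 5.12% and 44.5% in the other null regions and 63.2%, 4.88% and 31.9% in the flanks. The intron share differed between tissues, with 75.9% for domains wide in heart alone, 60.4% in carcass alone and 55.4% in hindbrain alone. These are descriptions of the positions, given with no test.

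Of the 3278 domains, 2437 (74.3%) had their centre in a gene, against 53.2% of the other null regions. The start of an annotated transcript lay within 322 domains (9.82%) and within 1.99% of the other null regions, which are narrower. Within 10 kb of a start lay the centres of 31.3% of domains and 24.8% of other null regions. Along genes of 20 kb or more the domain centres were spread evenly, with 20.5%, 20.7%, 19.4%, 19.5% and 19.9% in 5 successive stretches of equal length from the start, beside 19.6% to 20.8% for other null regions. Chromosome 8 had the most domains per Mb (2.14) and chromosome 3 the fewest (0.953). The median gap between neighbouring domains was 124700 bp, and 473 of 3259 gaps were 10 kb or less.

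Short motifs of transcription factors that act in these tissues were counted in the central 300 bp of each domain on both strands. AGATAA, the letters of a GATA site, was in 16.4% of all domains, in 29.7% (11 of 37) of those wide in liver alone, in 19.4% of those wide in heart alone, in 14.1% of those wide in hindbrain alone, in 13.8% of those wide in carcass alone and in 18.5% of other null regions of 1000 bp or more. CAGCTG, an E-box of basic helix-loop-helix factors, was in 20.2% of domains and 20.1% of those other regions. TAATTA, a homeodomain core, was in 7.75% against 8.62%, ACAATG, a SOX core, in 13.5% against 15.6%, and GGAATG, a TEAD core, in 17.1% against 18.3%. A match says only that these letters are in the window.

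Wide domains overlapped 1414 of 21281 protein-coding autosomal genes (6.64%), and a domain lay within 10 kb of 1766 (8.3%). By tissue, a domain wide in hindbrain overlapped 1.44% of genes, in heart 4.53%, in carcass 3.63% and in liver 0.949%. The share rose with gene length, from 1.2% of genes up to 10 kb, through 4.6% up to 50 kb, 13% up to 100 kb and 23.9% up to 200 kb, to 33.1% of longer genes. The share of gene bases inside domains ran only from 0.739% to 1.3% over these classes. In all, 467 genes held 2 or more domains and 81 held 5 or more.

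The genes with the most domain bases were long. Gm20388, a predicted gene model of 4434882 bp on chromosome 8 that spans other genes, held 59 domains and 230100 bp. It was followed by Fto, an RNA demethylase gene (13 domains, 56500 bp), Wwox (13 domains, 47800 bp), the transcription factor genes Ebf3 (10 domains, 44400 bp) and Etv6 (12 domains, 44200 bp), and the growth factor receptor gene Fgfr2 (12 domains, 41000 bp, in a model of 3009069 bp). Aff3 and Trio held 39700 bp each, the transcription factor gene Bach2 39500 bp and the podosome scaffold gene Sh3pxd2a 34400 bp. Tissues differed between them: all 10 domains in Ebf3 were wide in carcass and none in heart, all 12 in Etv6 were wide in heart and 4 in carcass, and all 9 in Sh3pxd2a were wide in heart and 2 in carcass.

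Gene lists for the dissected tissues were then counted against these shares. Of 20 genes for sarcomere and calcium handling, which build and drive the contraction of heart muscle, 13 were overlapped by a domain, beside 6.64% of all genes: 12 by a domain wide in heart, where 4.53% of all genes were, 1 in carcass, 0 in hindbrain and 0 in liver. Of these, Actc1 and Atp2a2 held only 184 and 170 bp of a domain. By library, 11 of 20 were overlapped by a wide peak of heart null 1, where 4.46% of all genes were, and 4 of 20 by one of heart null 2, where 1.19% were. The list had 5 genes over 100 kb. Peak width in these libraries chose the domains, so these counts are a description and carry no test.

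Myh7, the slow beta-myosin heavy chain, held 3 domains. The widest (chr14:55606901-55613500, 6600 bp, over the start) was covered over 100% and 86.4% in heart null, 15.2% in liver null, 0%, 7.58%, 9.09% and 9.09% in hindbrain null and 0% in both carcass null libraries. Its neighbour Myh6, the alpha-myosin heavy chain, held a domain of 6900 bp covered over 100% and 89.9% in heart null, 8.7% in each carcass null library, 10.1% in liver null and 5.8% to 18.8% in hindbrain null. No WT library, heart included, covered any base of these 4 domains. The domains of both myosin genes were thus covered over 70% or more in both null hearts and over 43.3% or less elsewhere. Cacna1c, a subunit of the L-type calcium channel, held 5 domains, each covered over 100% in heart null 1 and 53.3% to 94.9% in heart null 2. Elsewhere they were covered over 19.4% to 70% in carcass null, over 69.2% and 66.7% for 2 of the 5 and 0% for the others in liver null, and over 0% to 43.3% in hindbrain null. Tpm1, alpha-tropomyosin, was covered in more tissues, with 100% and 83.7% in heart, 74.4% in each carcass null library 69.8% in liver null and 25.6% to 48.8% in hindbrain null.

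Of 17 cardiac transcription factor genes, 3 were overlapped by a domain wide in heart, where 4.53% of all genes were, and 1 of these also by one wide in liver. Heart null 1 called all 3 wide and heart null 2 called 1. Gata4, a zinc finger factor of heart and liver development, held 3 domains, the widest being 7600 bp at chr14:63846601-63854200. It was covered over 100% and 89.5% in heart null and 67.1% in liver null, but over 18.4% in each carcass null library and 6.58% to 10.5% in hindbrain null, and over 5.26% in hindbrain WT 3 alone among WT libraries. The 2 other Gata4 domains were covered over 100% and 74.4%, and 100% and 76.7%, in heart null, over 46.5% and 0% in liver null and over 0% in carcass and hindbrain null. Myocd, a coactivator of serum response factor, held 2 domains and Tbx5, a T-box factor, held 1 domain of 3600 bp covered over 100% and 61.1% in heart null, 41.7% in liver null, 22.2% and 30.6% in carcass null and 8.33% to 16.7% in hindbrain null.

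**Figure D3:**
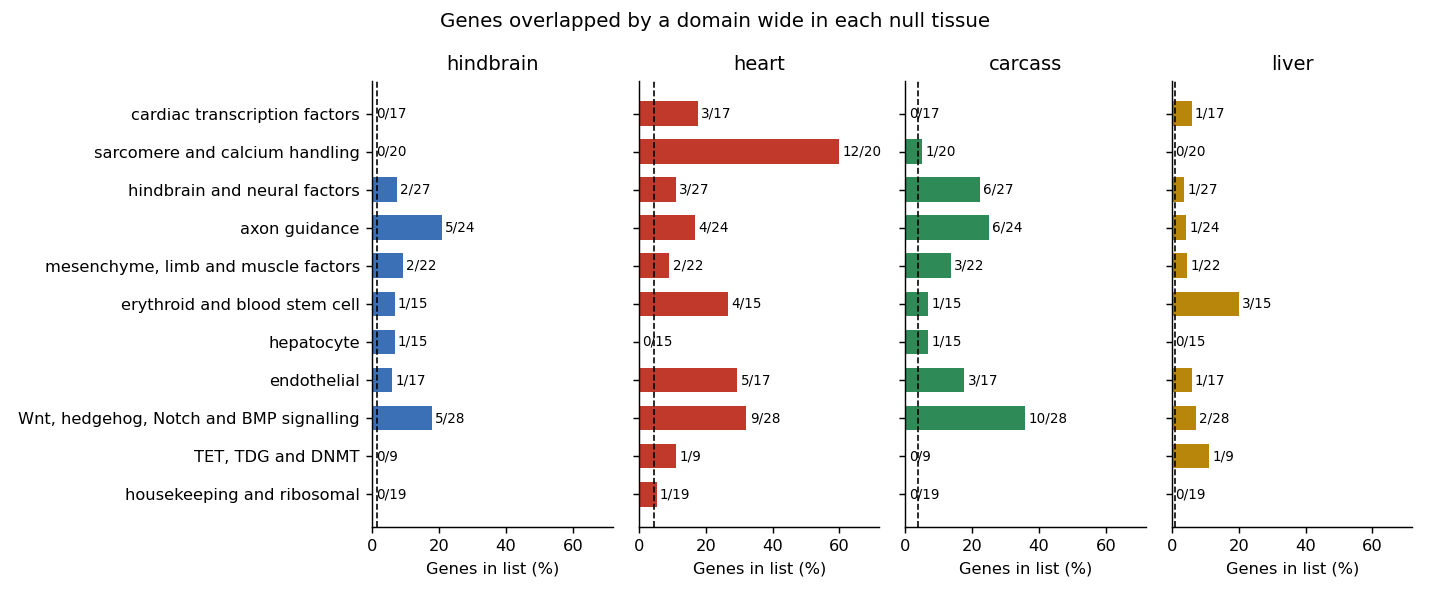
Percent of the genes in each list overlapped by a domain wide in hindbrain, heart, carcass or liver (bars start at 0, counts beside them), with the share of all protein-coding genes as a dashed line. The bar of 12 of 20 sarcomere and calcium handling genes in heart is the longest of the plot.

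Signalling genes held large domains in several tissues. Of 28 genes of Wnt, hedgehog, Notch and BMP signalling, 11 were overlapped, beside 6.64% of all genes, 10 by a domain wide in carcass, 9 in heart, 5 in hindbrain and 2 in liver. By library the carcass count was 7 and 10 and the heart count 9 and 3. Domains took up 9.2% of the bases of these genes. Smad6 held 4 domains, all wide in heart alone, of which only the widest was wide in both heart null libraries. The one of 3000 bp was covered over 76.7% and 86.7% in carcass null and 90% in liver null, beside 53.3% in heart null 2. Smad7 held 4 domains that lie in a row. Smad3, a transducer of TGF-beta signals, held 6 domains, and 3 of these were wide in hindbrain and carcass, with 1 of the 3 wide in heart too. Ptch1, the hedgehog receptor, held 4, all wide in carcass; the widest of them (4800 bp) was covered over 93.8% and 97.9% in carcass null, 93.8% and 83.3% in heart null, 62.5% in liver null and 0%, 0%, 37.5% and 52.1% in hindbrain null.

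Of 27 hindbrain and neural factor genes found, 6 were overlapped, all 6 by a domain wide in carcass, where 3.63% of all genes were, 3 in heart, where 4.53% were, and 2 in hindbrain, where 1.44% were. Meis1, a Hox cofactor, held 4, and 2 of these were wide in hindbrain. Of 24 axon guidance genes 8 were overlapped, beside 6.64% of all genes, 5 by a domain wide in hindbrain (5 in hindbrain null 4 and 3, 1 and 1 in the other 3 libraries) and 6 in carcass. Of the 24 genes, 21 were over 100 kb. Slit3, a secreted guidance ligand, held 7 domains, 6 of them wide in carcass, and Unc5b, a netrin receptor, held 5, all wide in heart.

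Of 15 erythroid and blood stem cell genes found, 5 were overlapped, beside 6.64% of all genes, 4 by a domain wide in heart (4 in heart null 1 and 2 in heart null 2), 3 in liver, 1 in carcass and 1 in hindbrain. Zfpm1, the GATA cofactor FOG1, held 5 domains, of which the widest (chr8:124820001-124827900, 7900 bp) was covered over 100% and 97.5% in heart null, 98.7% in liver null, 54.4% and 60.8% in carcass null and 27.8% to 44.3% in hindbrain null. Cbfa2t3, a transcriptional corepressor gene, held 4 domains, 3 of them wide in carcass and 1 in heart, and Runx1, a factor of blood stem cells, held 1 that was wide in hindbrain. Of 17 endothelial genes 6 were overlapped, 5 by a domain wide in heart, where 4.53% of all genes were (5 in heart null 1 and 1 in heart null 2). Among them was Kdr, a receptor for vascular endothelial growth factor, with 100% and 93.8% in heart null, 59.4% in each carcass null library and 87.5% in liver null over a domain of 3200 bp. The mesenchyme, limb and muscle list had 4 of 22 genes overlapped by a domain of any tissue, beside 6.64% of all genes (Gli2, Sox6, Sox5 and Myf5), the hepatocyte list 1 of 15 (Prox1, by domains wide in carcass and hindbrain, not liver) and the housekeeping and ribosomal list 1 of 19 (Gapdh). Of 9 genes that write or remove cytosine modifications, 2 were overlapped, beside 6.64% of all genes, each by 1 domain: Tet3 by one wide in heart and Dnmt3a by one wide in liver. Tdg was overlapped by none.

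How far null libraries cover each other's wide peaks was next compared, since the covering library took no part in choosing the peaks it was measured on. On average 69.5% of the bases of a library's wide peaks lay under peaks of another library of the same tissue (16 ordered pairs, 44.6% to 99.1%) and 52.7% under those of another tissue (56 pairs, 18.9% to 95.6%). The difference was 16.8 percentage points (p = 0.00106, two-sided, by exact permutation of tissue names among the 9 libraries, in 3780 ways). Without heart null replicate 2 it was 11.8 points (p = 0.0571 in the same exact permutation). Libraries of 1 embryo are not independent, so p-values of this permutation may be too small. Hindbrains came from other embryos and litters than the other tissues, so tissue and litter cannot be told apart there. Libraries of different tissues from 1 embryo stood between, with 62.8%, and different tissues of different embryos gave 51.1%. The order was not the same for every tissue: hindbrain wide peaks were covered over 63% by other hindbrain null libraries and over 88.4% by carcass null libraries, whereas heart wide peaks were covered over 24.3% by hindbrain and carcass wide peaks over 33.6% by hindbrain null libraries. Libraries with more peaks cover more by their extent. With each covered share divided by the covering library's share of the autosomes, pairs within a tissue were still higher, with a log2 difference of 0.696 (p = 0.00317 in the same exact permutation).

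**Figure D4:**
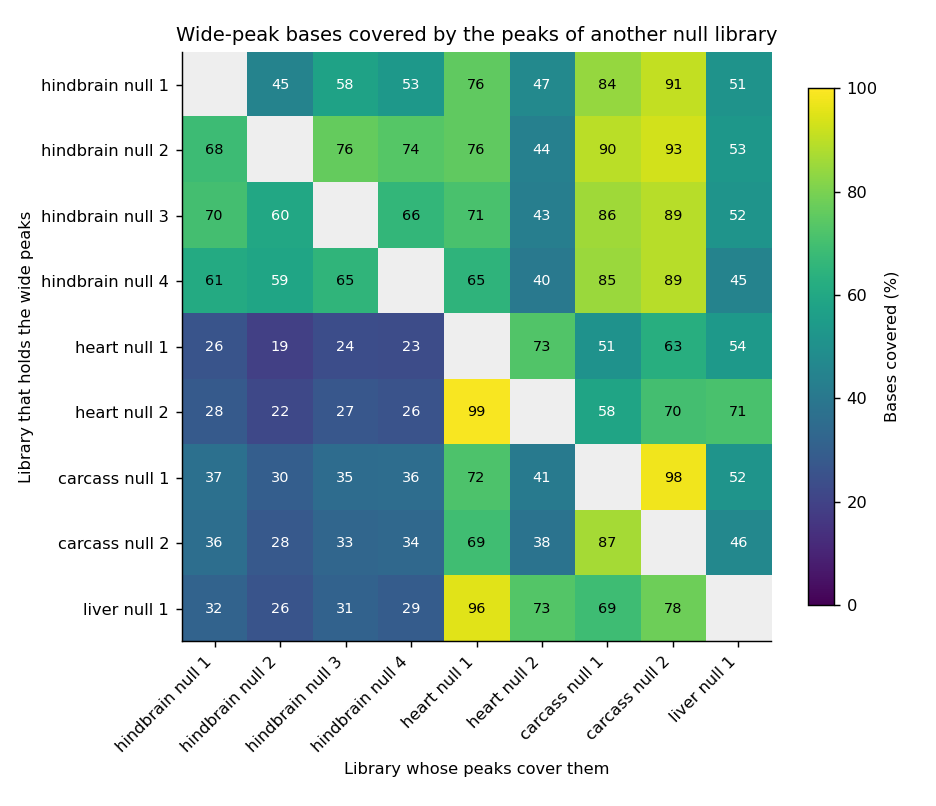
Percent of the bases of the wide peaks of each null library (rows) that lie under peaks of every width of another null library (columns). Heart null 1 and the carcass null libraries, as columns, cover the most, and values in hindbrain columns for heart and carcass rows lie between 18.9 and 37.

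The overlap of the domains themselves was also counted between libraries. Of 321 domains wide in heart null 2, 297 (92.5%) were also wide in heart null 1, which is 18.1% of the 1640 of heart null 1. Of 886 wide in carcass null 1, 772 (87.1%) were wide in carcass null 2, or 45.5% of its 1697. Pairs of hindbrain null libraries shared 28.4% to 64.4% of the domains of the library with fewer, from 71 of 250 (libraries 1 and 4, 24% of the 296 of library 1) to 47 of 73 (libraries 2 and 4, 18.8% of the 250 of library 4). A share of 61.5% to 75.3% of the domains of each hindbrain null library was wide in carcass null 2, which is 3.24% to 10.7% of its 1697. Of the 267 domains wide in liver null, 209 (78.3%) were wide in heart null 1 of the same embryo, or 12.7% of its 1640. High overlap was thus seen between tissues as well as within them.

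In WT embryos the domains were thinly covered. Peaks of hindbrain WT libraries lay over 0.649%, 2.03%, 4.32% and 0.565% of domain bases, those of heart over 0.662% and 1.18%, of carcass over 7.63% and 6.61% and of liver over 1.88% and 0.198%. The corresponding shares in the 9 null libraries were 24% to 80.9%, with the libraries that chose the domains among them. No WT library touched 1636 domains (49.9%), 81 (2.47%) were touched by 5 or more WT libraries and none by all 10. The mean WT share over domains was 2.24% for those wide in 1 null library and 2.56%, 3.28%, 2.71%, 3.41% and 3.34% for those wide in 2 to 6. It was 9.32% for the 4 domains wide in all 9, where Pxn had 23.2%, Bahcc1 10.3% and the Ttc28 domains 3.75% and 0%.

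WT coverage was higher in the domains than beside them. Per WT embryo, averaging the tissues of an embryo, the share of domain bases under peaks was a mean 4.31-fold that of the flanks, a log2 difference of 2.11 ± 0.468 (SD, n = 6 embryos), and it was higher in 6 of 6 embryos (exact permutation test by flipping signs over embryos, two-sided, p = 0.0312, a value that 6 embryos cannot go below). Against the other null regions the difference was smaller, with log2 values of 1.70, 0.81, 0.52, 1.62, 0.32 and 0.30 and a mean of 0.88 ± 0.631 (SD, n = 6), or 1.84-fold (exact p = 0.0312).

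The second of these depended on the regions set against the domains and on a few loci. Against other null regions of 1000 bp or more the log2 difference was 0.431 (exact p = 0.188). Of 44 wide WT peaks 23 overlapped a domain, and they fell on 8 domains: in Gli2, Gm15319, Gm10807, Stx8, Coil and Tcte2, near Pdia4 and near 9230019H11Rik. Hindbrain WT libraries covered 72.6% to 84.7% of the bases of these 8. These 8 were picked by their WT peaks, which are the outcome compared, so leaving them out lowers the values of the domains by construction, and the values without them are given as a description with no test. Without them the fold over other null regions was 1.18 (log2 0.241 ± 0.194, SD, n = 6), over those of 1000 bp or more 0.867 (log2 -0.207 ± 0.139) and over the flanks 3.15 (log2 1.65 ± 0.181). The excess over other null regions thus passed the test against regions of all widths but not against regions of 1000 bp or more, and the excess over the flanks was larger than either. With the flank bases under null peaks left out, it was 4.93 on the log2 scale (exact p = 0.0312).

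Null regions were also sorted by their widest null peak, with every region kept. Mean WT coverage was 1.11% for widths under 1000 bp, 2.71% from 1000 bp, 3.01% from 2000 bp, 2.42% from 3000 bp and 2.46% from 4000 bp. In carcass WT the means were 3.12%, 8.22%, 9.17%, 7.26% and 5.49%, so the widest class lay below the middle classes. In hindbrain WT they were 0.665%, 1.6%, 1.87%, 1.53% and 2.34%, and in heart WT 0.394%, 0.835%, 0.86%, 0.68% and 1.29%, with the widest class highest. The widest class held 4 regions under a wide WT peak among 750, and without these its mean was 1.34% in hindbrain WT and 0.409% in heart WT. Region centres do not grow with width: 16.9% of domain centres lay under a peak of any WT library, beside 13.5% for other null regions and 23.3% for those of 1000 bp or more.

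**Figure D5:**
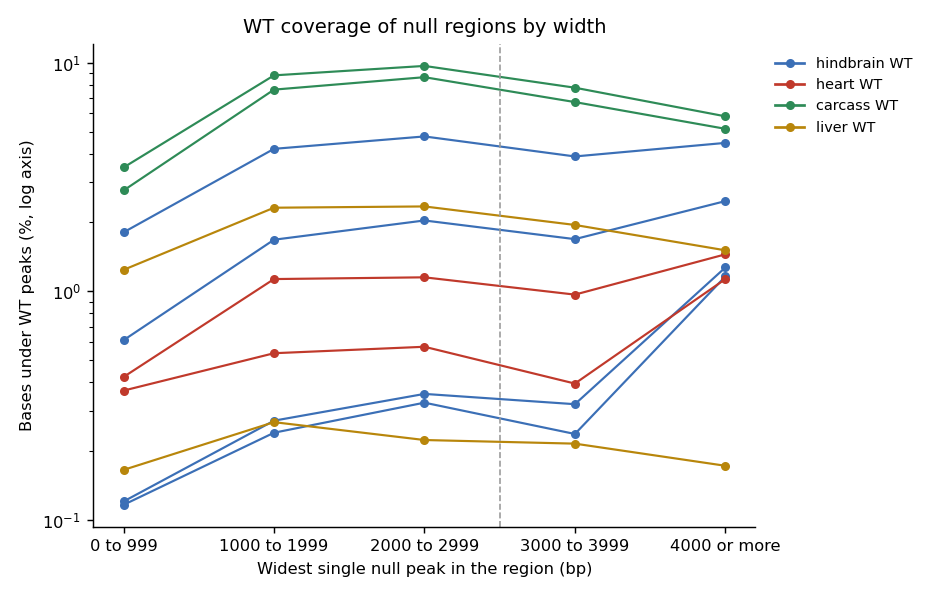
Percent of bases under peaks of each of the 10 WT libraries (log axis) for merged null regions sorted by their widest null peak, where regions right of the dashed line hold wide domains. The carcass lines peak in the class from 2000 bp, while 3 of 4 hindbrain lines and both heart lines are highest at 4000 bp or more.

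The domains most covered in WT were not those most covered in null. Highest was Gm15319 (mean over 10 WT libraries 59.9%), followed by Gm10807 (50%), Tcte2 (45.9%), Cldn14 (35.3%) and Coil (33.9%). The Gm10807 domain was covered over 100% in each of the 4 hindbrain WT libraries and in heart WT 2, and among null libraries in hindbrain null 4 alone (100%). Tcte2 was covered over 92.7%, 100%, 100% and 82.9% in hindbrain WT, 82.9% in heart WT 2, and 0%, 80.5%, 82.9% and 100% in hindbrain null. Cldn14, a tight junction claudin, differed from these, with 9 of 10 WT libraries between 32.4% and 64.7% and liver WT 2 at 0%, carcass WT 1 highest at 64.7% and heart WT 2 next at 50%, and both carcass null libraries at 0%. Gli2, a transcription factor of hedgehog signalling, was covered over 63.2% to 100% in the 9 null libraries, and over 78.9% and 34.2% in carcass WT and 0%, 23.7%, 28.9% and 0% in hindbrain WT.

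To compare genotypes on domains that hindbrain did not choose, the wide peaks of the heart, carcass and liver null libraries were merged anew without hindbrain, and the resulting 3109 domains were measured in hindbrain. Null hindbrains covered 30.6%, 23.1%, 28.3% and 28.5% of their bases and WT hindbrains 0.228%, 1.6%, 3.83% and 0.178%, with no overlap between groups. As log2 of the covered share itself the groups differed by 5.28 (two-sided exact permutation test, n = 4 per genotype, p = 0.0286, the smallest possible). These domains were still chosen in null libraries alone. The choice thus favours coverage in null hindbrain, and the contrast is not independent of genotype. With libraries paired by litter, an exact test over 4 litters cannot go below 0.125. Null libraries also covered more of the whole autosomes (2.84% to 3.89% against 0.0357% to 0.484%). Relative to that, domains were enriched by log2 2.95 ± 0.07 (SD, n = 4) in null and 2.75 ± 0.36 (SD, n = 4) in WT hindbrain. The difference of 0.204 was not distinguished from 0 (exact p = 0.371).

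Last, it was measured whether WT libraries covered domains wide in their own tissue more than the others. For each library the covered share of the tissue's own domains was divided by its sum with the covered share of the domains not wide in that tissue, so that 0.5 means equal coverage. The tissue's own domains are those wide there alone, and domains wide there and elsewhere entered neither side. Heart, liver and carcass libraries of an embryo are not independent, so p-values over libraries may be too small. For the 170 hindbrain domains the value was 0.913 ± 0.0845 (SD, n = 4) in hindbrain WT and 0.718 ± 0.18 (SD, n = 6) in other WT libraries (exact permutation p = 0.0952, adjusted over 4 tissues 0.19). With embryos as units, 4 against 2, the exact permutation p was 0.133, and this number of embryos cannot reach 0.05. Without the 8 loci, a setting chosen after the data were seen and on WT peaks, the values were 0.702 ± 0.022 and 0.438 ± 0.226, given with no test. For the 1162 carcass domains it was 0.61 ± 0.0116 in the 2 carcass WT and 0.299 ± 0.142 in the 8 other libraries (exact permutation p = 0.0444, the smallest possible, adjusted 0.178), and the difference of 0.311 was 0.163 without the 8 loci. Heart domains showed 0.34 ± 0.0218 in the 2 heart WT libraries and 0.336 ± 0.17 in the others (exact permutation p = 0.889), and without the 8 loci 0.527 ± 0.0395 and 0.427 ± 0.133. The 37 liver domains gave 0.74 ± 0.144 and 0.584 ± 0.136 (exact permutation p = 0.178, adjusted 0.237), and without the 8 loci 0.754 ± 0.155 and 0.648 ± 0.204. No tissue passed 0.05 after adjustment with all domains included.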

How the data were processed

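5fC was measured by chemical pull-down in 20 libraries. The authors trimmed reads with Trim Galore, aligned them with Bowtie2 to NCBIM37 (mm9) and called peaks with MACS per pull-down. The use of input or duplicate removal is not given in the sources used here. The deposited lists hold peak positions on a grid of 100 bp, and these positions are all that was used, so coverage here is the share of bases under peaks, given as a percent, and depth and its precision are unknown. A wider peak can come from more signal or from joined neighbours.

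Domains were merged as described above, on the 19 autosomes. Flanks were 10 kb on each side, without domain bases. Log2 ratios had 100 bases added to each covered sum. Genes came from GENCODE models of the same build: 21281 protein-coding autosomal genes, where 136 symbols had several identifiers and the longest was kept. Tests were exact permutation or sign-flip tests over libraries or embryos, tested on simulated data first, with Benjamini-Hochberg adjustment over the 4 tissues (Python 3.11.15, numpy 2.4.6, pandas 2.3.3). Libraries of a group came from different embryos, and heart, liver and carcass of an embryo were averaged where embryos were the unit. Hindbrain litters are given by letters in the labels; same-litter WT and null libraries correlated in their deviations at -0.07 to 0.13 (4 pairs), others at -0.24 to 0.15 (12 pairs).

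The members, gene lists and named genes were chosen with earlier results of these data known. Named were the 12 widest domains, the 5 wide in the most libraries, the 10 genes with the most domain bases, for each tissue the 3 widest of the domains wide there alone (those wide in the most libraries of the tissue first), the 5 with the highest WT share, and up to 4 genes per list by domain bases, of which 1 is not reported here; the domains under a wide WT peak were named after their values were seen. Alternatives were width, merging, flank width, reference regions, leaving out each library or embryo and the litter as a block.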

Additional observations from a re-analysis of the deposited data

Results flagged for a closer look

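In hindbrain null, replicate 2 lay apart from the other 3 libraries in its coverage of the other null regions (19.3%, against 25.5% to 26.5%) and of the flanks of the domains (6.49%, against 8.29% to 8.47%). It also had the fewest wide peaks, 73. The longest peak of hindbrain WT 3 measured 50900 bp, where those of the other 3 hindbrain WT libraries measured 71000 to 71200 bp. The preference for liver domains was 0.395 in hindbrain WT 2, beside 0.561 to 0.594 in the other 3. These 4 values stood apart among 22 groups of values tested, and chance sets apart about 1 in 20 such groups.

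The liver null replicate 2 library, outside the 9, held 1 wide peak of 5000 bp, at chr8:74334501-74339500, which overlaps no domain and no protein-coding gene. It was covered over 56% and 38% in the carcass and heart libraries of the same embryo, over 12% in hindbrain null 2 and over 0% in every other library.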

How the results depend on the processing

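The number of domains, 3278, was 16613 at a width of 2000 bp, 755 at 4000 bp, 5976 with peaks closer than 200 bp joined and 1362 when wide in at least 2 libraries, and 2309 to 3271 with each library left out. For WT coverage against other null regions, 8 of 10 alternatives kept direction and side of the threshold. Of these 8, 1 left out the domains under a wide WT peak, a choice made on the outcome, and is no independent check. The log2 value was 0.431 against regions of at least 1000 bp, 1.16 in hindbrain embryos alone (exact sign-flip p = 0.125, the smallest possible) and 0.49 with peaks joined. It was 1.34 at 4000 bp, 3.37 against all autosomal bases and 0.715 to 0.95 with 1 embryo, WT library or null library left out. Against regions of at least 1000 bp with the 8 domains under a wide WT peak left out, it was -0.207. Against flanks it was 4.93 with flank bases under null peaks left out, 2.32 in hindbrain embryos alone and 1.97 to 2.27 with 1 left out; p rose to 0.0625, the smallest 5 embryos allow. Agreement was 11.8 to 22.6 points with 1 left out, and at 4000 bp no value could be had. The hindbrain null against WT difference was -0.126 at 4000 bp, 5.28 as covered share alone and 0.061 to 0.32 with 1 left out; with the litter as replicate block it was 0.204 (exact p = 0.5), and no blocked test over 4 litters can go below 0.125, the covered share alone included. WT preference for hindbrain was 0.304 at 2000 bp, 0.652 at 4000 bp and 0.264 without the 8 domains (0.161 to 0.238 with 1 left out). For heart it was 0.179 at 2000 bp, -0.178 at 4000 bp and 0.101 without the 8 domains. With domains wide in any library of the tissue the heart value was -0.0463, and with 1 left out -0.0359 to 0.0555. With 1 left out it was 0.284 to 0.349 for carcass (unadjusted exact permutation p up to 0.222) and 0.054 to 0.258 for liver. At 4000 bp the liver value was 0.00678. The cause of these shifts was not tested. Leaving out the 8 domains was chosen after the data were seen, on the WT peaks themselves, which lowers WT coverage of the domains by construction. Peak lists without heights limit what can be said: an uncovered domain is one without a called peak, and WT lists with few peaks can miss low coverage.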

Other observations

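In 3 domains coverage followed the embryo. Each was covered over 97.1% to 100% in the heart, carcass and liver libraries of null embryo 1 and over 0% in the heart and carcass libraries of null embryo 2: 7500 bp at chr6:23107201-23114700, near the start of Aass (lysine degradation); 6900 bp at chr17:35635101-35642000, which lies 982 bp from the start of Pou5f1; and the neighbouring Pou5f1 and Tcf19 domain. No domain showed the opposite pattern, with at least 50% in both libraries of embryo 2 and 0% in the 3 of embryo 1. Of the 10 WT libraries, carcass WT 2 covered 36.2% of the second domain and none covered the others.

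Outside the autosomes, the X chromosome held 8 wide domains in null libraries, each wide in hindbrain alone, the widest being 26300 bp over Mid1, a microtubule-associated ubiquitin ligase gene. WT libraries held up to 7 wide peaks on X (heart WT 1 and hindbrain WT 3).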
